A study of Gossypium hirsutum with 6 samples.

Results

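The genes described here encode the nuclear subunits of the mitochondrial respiratory chain and of ATP synthase in upland cotton (*Gossypium hirsutum*), with their assembly factors. A gene was taken when it was protein-coding, had at least 60 counts over the 6 samples, and was described with the words ATP synthase, cytochrome c oxidase, NADH dehydrogenase, cytochrome b-c1, succinate dehydrogenase or alternative oxidase. This gave 199 of the 44055 protein-coding genes with at least 60 counts, out of 67585 protein-coding genes and 100562 genes listed. The annotation uses the words for 62 further genes with fewer counts, of which 39 had 0 counts in every sample. The highest totals left out were 48 counts for LOC107942891 and LOC107951627, and the lowest totals kept were 73 for LOC121215538 and 189 for LOC107895066. No gene carried the name alternative oxidase (0 genes), because the annotation calls this enzyme ubiquinol oxidase.

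RNA was sequenced from wild type ovules of the cultivar ZM24, taken from bolls at 0 days post anthesis and cultured in the dark for 2 d. The cultures held water (CK, 3 samples) or 10 μmol/L putrescine (Put, 3 samples), and the study used them to ask which genes respond to Put while fiber cells elongate from the ovule surface. Put is the simplest of the common plant polyamines. The replicates came from a random division of the collected ovules, so the p-values below measure the spread between these samples, which may be technical. The samples are whole ovules with their fibers, in which fewer cells of a type and less RNA per cell cannot be told apart.

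Respiratory complexes I to IV pass electrons from NADH and succinate to oxygen and, apart from complex II, pump protons out of the mitochondrial matrix. ATP synthase, also counted as complex V, lets the protons flow back and makes ATP. Most of the subunits are encoded in the nucleus, while several catalytic subunits are encoded in the mitochondrial genome. Upland cotton is an allotetraploid and carries most genes as copies on A and D chromosomes, which are named for their diploid ancestors.

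The 199 genes fell into complex I with 76 genes, complex II with 15, complex III with 22, complex IV with 22, the mitochondrial ATP synthase with 33, the chloroplast ATP synthase with 6 and assembly factors with 25. They stood for 62 distinct subunits or factors, with 96 genes on A and 103 on D chromosomes. In FPKM, the fragment counts scaled to gene length and to library size, the level of a gene ranged from 0.545 to 140.5 with a median of 25.2, and 146 genes had a mean of at least 10 FPKM. The highest mean levels per length were those of LOC107913954 (complex I beta subunit 3-B, A05, 140.5 FPKM), LOC107899003 (ATP synthase beta, A04, 121.7 FPKM) and LOC107926847 (cytochrome c oxidase 5C, A08, 115 FPKM). Copies from A and D chromosomes have similar sequences, so reads may have been exchanged between them, and how reads with several possible positions were counted is not given in the sources used here.

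The libraries held 19131678 to 19463059 counts with CK and 16974557 to 18454734 with Put, and 3 counts corresponded to 0.153 to 0.179 CPM, the unit of counts scaled to library size. Markers of ovule identity summed to 559 to 570.1 CPM with CK and 536 to 546 CPM with Put, with 3 of 13 tested genes higher, 9 lower and 2 of 17 at 0. The fiber protein E6 genes summed to 1286 to 1339 CPM with CK and 6033 to 6171 CPM with Put, with 4 of 6 higher and 2 lower. Chlorophyll a-b binding genes summed to 167 to 171.5 CPM with CK and 136.5 to 138 CPM with Put, with 1 of 32 tested genes higher, 12 lower and 8 of 49 at 0. Pollen-specific genes (1 of 6 tested higher, 1 lower, 7 of 16 at 0) summed to 44.2 to 45.3 CPM and 44.3 to 47.7 CPM, and seed storage genes (0 of 5 higher, 2 lower, 10 of 18 at 0) to 110.4 to 120.0 CPM and 106 to 109 CPM. The part of these shifts in the results below was not tested.

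Most of the respiratory genes were higher with Put, each by a small amount. Of the 199 genes, 128 rose, 7 fell and 64 did not pass the test (edgeR quasi-likelihood test, Benjamini-Hochberg adjusted p under 0.05 over 51764 tested genes). Among all tested genes, 36.6% were called, 18.4% as higher and 18.2% as lower. The median log2 fold change of Put over CK was 0.30 over the 199 genes and 0.0009 over all tested genes. Among the 128 genes that rose, the median was 0.41, with the 10th percentile at 0.21 and the 90th at 0.75. Of the 199 genes, 49 (24.6%), 47 higher and 2 lower, were called and reached an absolute log2 fold change of 0.5, against 15.3% of all tested genes (9.22% higher and 6.11% lower). At a log2 fold change of 1 the 199 genes gave 2 higher and 1 lower, and all tested genes 5.72% (3.80% and 1.92%). For 136 genes every CPM value with Put was above every value with CK, and for 10 genes it was below, against 22.8% and 22.6% of all tested genes, or 45.4% in all. With offsets that follow gene length, described further on, the median was 0.19 and 106 genes were called higher and 10 lower, beside 33.6% of all tested genes (17.1% and 16.5%). DESeq2 called 115 genes higher and 6 lower, beside 28.3% of all tested genes (14.4% and 13.9%), and an edgeR threshold of 0.01 left 114 and 6, beside 27.4% (14.0% and 13.4%).

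**Figure D1:**
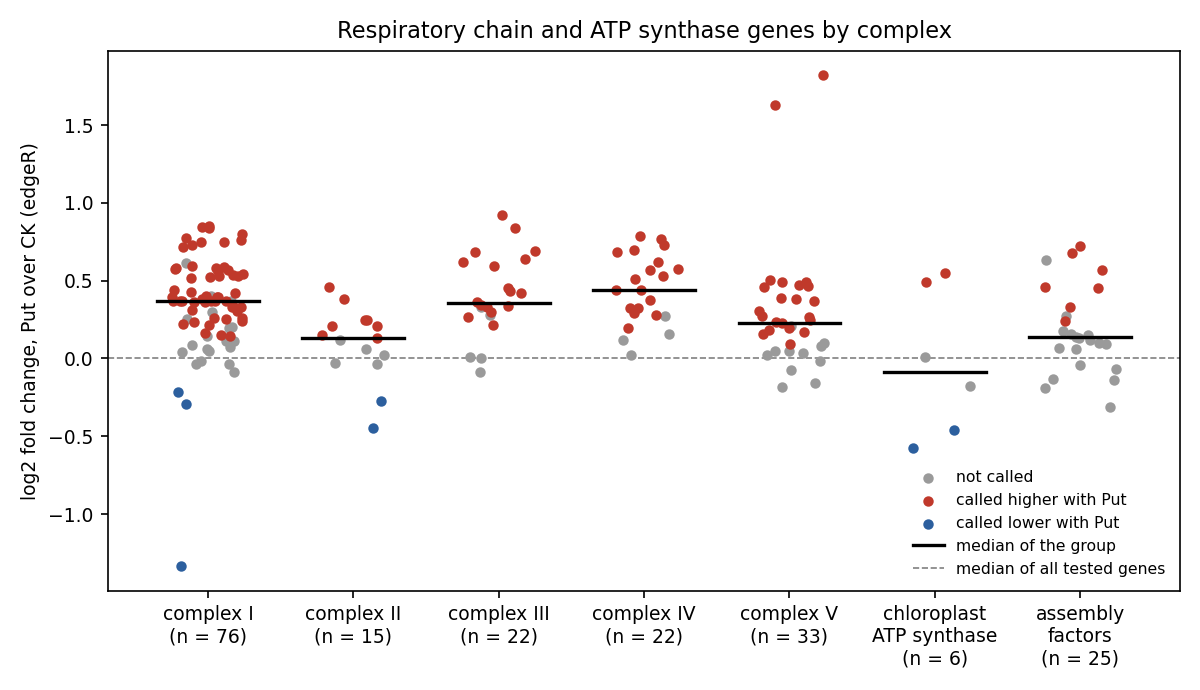
Each point is 1 of the 199 genes, placed by its log2 fold change of Put over CK from edgeR (vertical axis) within its complex (horizontal axis). Black bars are group medians, from -0.08 for the chloroplast ATP synthase to 0.44 for complex IV, and the dashed line is the median of all tested genes. Most points of each group except the chloroplast ATP synthase lie above this line.

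Summed over the genes of a group, the level per length was higher with Put in each mitochondrial complex. The sum over all 199 genes was 5424, 5376 and 5426 FPKM in the CK samples and 6884, 6815 and 6800.0 FPKM in the Put samples. The FPKM sum was 1.36 times as high with Put for complex IV, 1.33 times for complex I, 1.29 times for complex III, 1.18 times for the mitochondrial ATP synthase and 1.11 times for complex II. In CPM, which is not scaled to gene length, the sums were 1.31, 1.27, 1.24, 1.15 and 1.095 times as high, in the same order. Neither kind of sum is adjusted for the relation of log2 fold change with gene length described further on. In each of these sums the 3 Put samples lay above the 3 CK samples, and no test was run on the sums. Of the 62 subunits and factors, 47 had at least 1 copy that rose and none that fell, 2 had copies that fell and none that rose, 2 had copies of both kinds and 11 had no called copy.

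**Figure D2:**
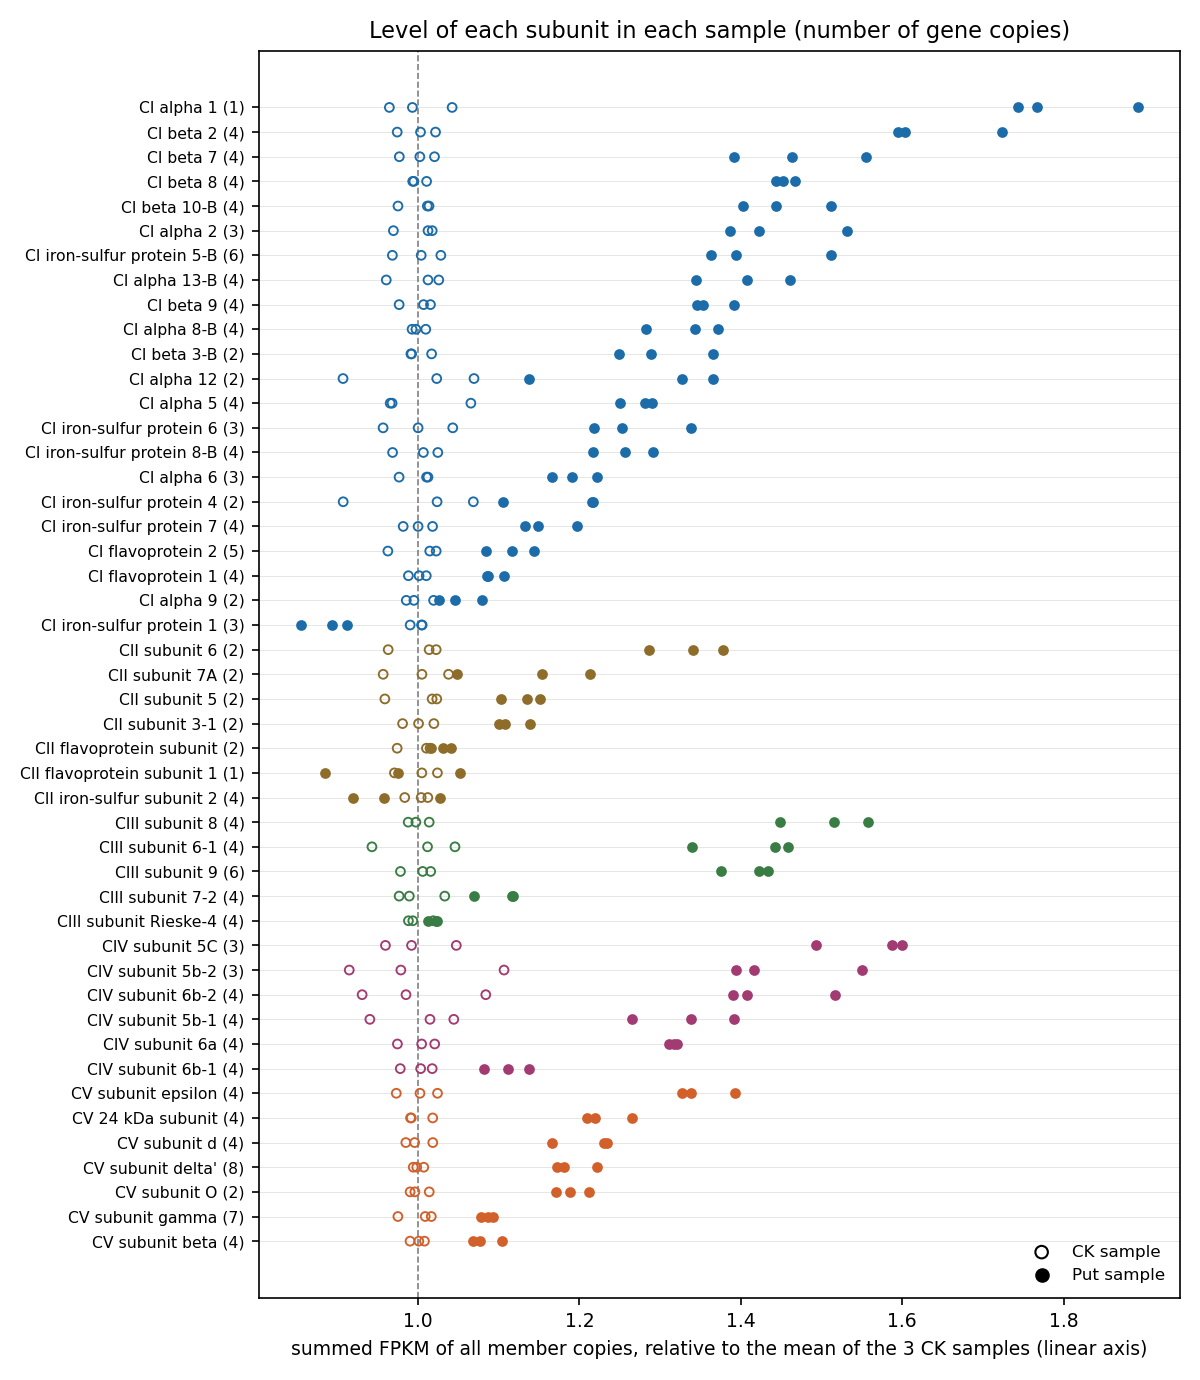
Each row is 1 subunit of complexes I to V (CI to CV), with the number of its gene copies, and each point is 1 sample (open, CK; filled, Put) at the summed FPKM of these copies relative to the mean of the 3 CK samples. The Put points lie farthest to the right for the alpha subunit 1 of complex I (1.80 times the CK mean), and those of the iron-sulfur protein 1 of complex I lie to the left of all its CK points (0.887 times).

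Complex I, the NADH dehydrogenase that takes up electrons from NADH, had 54 of 76 genes higher, 3 lower and 19 not called, with a median log2 fold change of 0.37. Its largest increase was in LOC107914510 (D10, 18529575 to 18531427, plus strand), which encodes alpha subunit 1, a small membrane subunit outside the catalytic core. Its CPM was 35.4, 34.4 and 37.1 with CK and 67.5, 63.1 and 62.2 with Put. The groups were far apart, with a log2 fold change of 0.85 (SE 0.05, edgeR adjusted p = 3.94e-20). Beta subunit 2, another small accessory subunit, had 4 copies that all rose. The log2 fold changes of these copies were 0.60 (LOC107905664, D05), 0.71 (LOC107916634, A01), 0.80 (LOC107921054, D01) and 0.84 (LOC107937581, A05). Their summed level went from 156.3, 151.8 and 159.2 FPKM with CK to 269, 249.8 and 248 FPKM with Put. All 4 copies also rose for beta subunits 7, 8 and 9 and for alpha subunit 13-B, and their summed FPKM was 1.36 to 1.47 times as high. The subunit with the highest level per length, beta 3-B, had both copies higher and a summed level of 218 FPKM with CK and 284 FPKM with Put.

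The gene of complex I with the highest CPM was LOC107924457 (alpha subunit 9, A11, 15872913 to 15877489, minus strand), an accessory subunit of the peripheral arm, with 100.9, 104.8 and 101.8 CPM with CK and 109.9, 106.3 and 105.0 CPM with Put. Its Put values lay just above its CK values, with a log2 fold change of 0.06 (SE 0.04, edgeR adjusted p = 0.18). Flavoprotein 1, which holds the flavin that accepts electrons from NADH, had 1 of 4 copies higher, and flavoprotein 2 had 2 of 5. Iron-sulfur protein 7 had 2 of 4 copies higher and iron-sulfur protein 8-B, which sits with it near the quinone site, 4 of 4. None of the 17 copies of these redox proteins fell.

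Iron-sulfur protein 1, the large subunit that holds several iron-sulfur clusters of complex I, moved in the other direction. LOC107952792 (A07, 81297121 to 81302619, plus strand) had 81.7, 78.3 and 83.0 CPM with CK and 70.5, 71.1 and 68.1 CPM with Put. Its groups did not overlap, and its log2 fold change was -0.21 (SE 0.04, edgeR adjusted p = 3.92e-05). LOC107946378 (A07, 57635959 to 57640969, plus strand) had 22.9, 23.7 and 24.01 CPM with CK and 20.9, 17.3 and 19.4 CPM with Put. It fell as well, with a log2 fold change of -0.29 (SE 0.08, edgeR adjusted p = 0.00197). The copy on D07, LOC107954824, had 68.4, 73.6 and 68.3 CPM with CK and 68.2, 61.1 and 68.8 CPM with Put, so its groups overlapped, and it was not called (log2 fold change -0.09, edgeR adjusted p = 0.153). The remaining lower gene of complex I was LOC121215538 (alpha subunit 6-like, D03), which had 13, 16 and 25 counts with CK and 9, 2 and 8 with Put. Its log2 fold change of -1.34 (SE 0.46, edgeR adjusted p = 0.019) rested on these few counts, no domain was listed for it, and DESeq2 did not call it (adjusted p = 0.0694). The other genes of alpha subunit 6, LOC107896380 (A10) and LOC107915169 (D10), rose by log2 fold changes of 0.36 and 0.17.

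Alpha subunit 13-B had a pair of neighbouring copies on each of A10 and D10, all 4 of which rose, by unequal amounts within each pair. On A10, LOC107887264 had 19.2, 17.7 and 18.3 CPM with CK and 30.8, 31.4 and 31.4 CPM with Put, and its log2 fold change was 0.76, while that of its neighbour LOC107914879 was 0.33. On D10, LOC107914878 had 20.97, 21.7 and 22.7 CPM with CK and 40.1, 38.6 and 38.5 CPM with Put, and its log2 fold change was 0.84, while that of its neighbour LOC107914876 was 0.24. The difference between neighbours was not tested. The neighbouring copies of beta subunit 7 were close to each other in log2 fold change, with 0.57 and 0.53 on A03 and 0.58 and 0.57 on D02.

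Complex II, the succinate dehydrogenase that links the tricarboxylic acid cycle to the chain, had 8 of 15 genes higher, 2 lower and 5 not called, with a median log2 fold change of 0.13. The genes that rose were mostly those of subunits 3, 5, 6 and 7, of which subunit 3 anchors the enzyme in the membrane and subunits 5 to 7 are additions found in plants. Among these 8 genes, 7 rose and 0 fell. The largest increase was in LOC107915764 (subunit 6, D08, 940608 to 944073, minus strand), with 34.2, 35.5 and 36.1 CPM with CK and 49.3, 47.6 and 48.5 CPM with Put. Its groups did not overlap (log2 fold change 0.46, SE 0.05, edgeR adjusted p = 5.09e-10). The gene with the highest CPM, LOC107914817 (subunit 3-1, D10, 28345821 to 28346968, plus strand), had 81.7, 82.4 and 86.2 CPM with CK and 90.6, 91.2 and 92.5 CPM with Put. Its log2 fold change of 0.13 (SE 0.04, edgeR adjusted p = 0.00505) was 0.01 with the length offsets, where it was not called (adjusted p = 0.887).

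None of the 3 genes of the flavoprotein subunit, which oxidizes succinate, was called, and their log2 fold changes were 0.06 (LOC107926744, A12), 0.02 (LOC107942584, D12) and -0.04 (LOC107909390, D03). The 4 genes of iron-sulfur subunit 2, which passes the electrons on, were split between directions. LOC107926496 on A07 rose with a log2 fold change of 0.25 (edgeR adjusted p = 0.000612), LOC107926498 on D07 was not called (-0.03), and LOC107957094 on A05 and LOC107898491 on D04 fell. Their sum was 91.6, 92.3 and 89.7 FPKM with CK and 93.7, 87.4 and 83.9 FPKM with Put, so the groups overlapped.

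The 2 lower copies of iron-sulfur subunit 2 have the same neighbour, a gene of the ATP synthase mitochondrial F1 complex assembly factor 2, which rose in both places. This factor lists an ATP12 chaperone domain, and ATP12 helps to assemble the F1 part of ATP synthase in yeast. On A05, the assembly factor gene LOC107957093 (85575755 to 85577616, plus strand) had 6.33, 5.86 and 7.07 CPM with CK and 9.01, 9.05 and 8.45 CPM with Put. The iron-sulfur gene LOC107957094 (85578560 to 85581070, minus strand), 943 bases away, had 14.2, 14.6 and 13.9 CPM with CK and 9.61, 9.82 and 11.96 CPM with Put. Neither gene overlapped between the groups, and the log2 fold changes were 0.46 (SE 0.13, edgeR adjusted p = 0.0026) and -0.45 (SE 0.10, adjusted p = 0.000328). On D04, the assembly factor gene LOC107898492 (17269121 to 17270948, plus strand) had 5.56, 5.66 and 6.24 CPM with CK and 9.56, 8.81 and 10.4 CPM with Put. The iron-sulfur gene LOC107898491 (17271887 to 17274244, minus strand), 938 bases away, had 29.5, 27.6 and 25.8 CPM with CK and 25.1, 23.5 and 20.1 CPM with Put. The log2 fold changes were 0.72 (SE 0.13, edgeR adjusted p = 4.8e-06) and -0.27 (SE 0.07, adjusted p = 0.00295), again with no overlap between the groups. In both places the 2 genes face each other with their 3′ ends, and whether the counting used strand is not given in the sources used here. The order, the strands and the spacing of the 2 genes are alike on A05 and D04. The 2 places may therefore be A and D copies of 1 locus, and they are not counted as separate cases. Whether they are such copies, or exchanged reads, was not tested. These neighbours were singled out after their values had been seen.

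**Figure D3:**
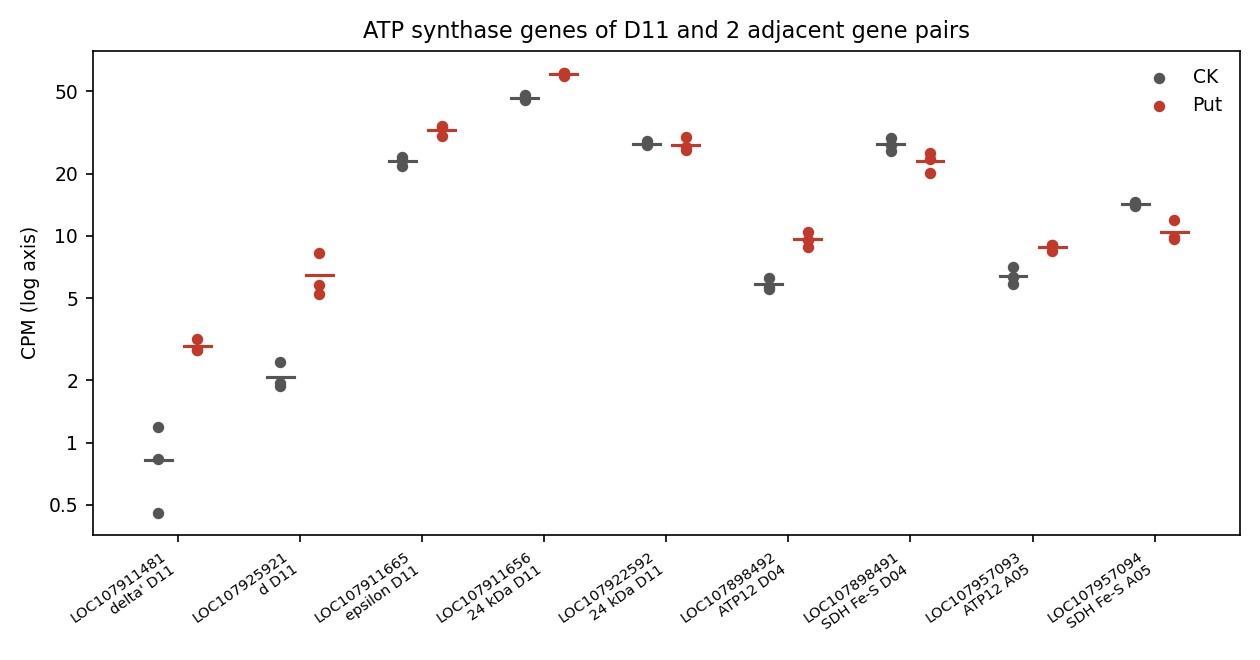
Each point is the CPM of a gene in 1 sample (grey, CK; red, Put) on a log axis, with a bar at the mean of 3 samples, for the 5 genes described as mitochondrial ATP synthase on D11 and for the adjacent genes on D04 and A05. The F1 assembly factor 2 genes (labelled ATP12) are higher with Put, and the iron-sulfur genes next to them (labelled SDH Fe-S) are lower.

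Complex III, the cytochrome b-c1 complex that passes electrons from quinol to cytochrome c, had 17 of 22 genes higher, 0 lower and 5 not called, with a median log2 fold change of 0.35. Subunits 6-1, 8 and 9, which are small and carry no redox group, had all of their 4, 4 and 6 genes higher, and their summed FPKM was 1.41, 1.51 and 1.41 times as high. The largest increase was in LOC107925511 (subunit 9, A01, 116664489 to 116668242, minus strand), with 9.45, 7.59 and 9.30 CPM with CK and 16.6, 17.4 and 15.9 CPM with Put. Its groups were well apart (log2 fold change 0.92, SE 0.10, edgeR adjusted p = 7.1e-11). LOC107937176 (subunit 7-2, D13, 62208949 to 62211166, minus strand) had the highest CPM of the complex and the smallest increase that was called, with 53.5, 53.9 and 54.8 CPM with CK and 61.6, 62.9 and 64.0 CPM with Put. The log2 fold change was 0.22 (SE 0.05, edgeR adjusted p = 0.000124), and 0.08 with the length offsets, where it was not called (adjusted p = 0.187). The Rieske protein, the iron-sulfur subunit of this complex, had 1 of 4 genes higher, and its summed level was 109.1, 109.7 and 112.5 FPKM with CK and 111.8, 112.9 and 113.0 FPKM with Put. These sums overlapped between the groups. The gene that rose was LOC107938477 on A01 (log2 fold change 0.27), while the copies with the highest levels, LOC107911745 (D11) and LOC107924147 (A11), had log2 fold changes of -0.09 and 0.0008 and were not called. The fourth gene, LOC107954704, lists a kinase domain in place of a Rieske domain.

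Complex IV, the cytochrome c oxidase that reduces oxygen, had the highest median log2 fold change of the groups, 0.44, with 18 of 22 genes higher, 0 lower and 4 not called. Its genes here encode the nuclear subunits 5b, 5C, 6a and 6b, which surround a catalytic core encoded in the mitochondrial genome. All 3 genes of subunit 5C rose, with log2 fold changes of 0.53 (LOC107909997, A07), 0.62 (LOC107910872, D08) and 0.69 (LOC107926847, A08). LOC107926847 (94991308 to 94994145, minus strand) had 40.4, 41.8 and 39.8 CPM with CK and 61.5, 66.5 and 68.6 CPM with Put, with no overlap between the groups (SE 0.05, edgeR adjusted p = 7.34e-17). LOC107950514 (subunit 6a, D03, 3511214 to 3513668, minus strand) had the highest CPM of the complex, with 56.6, 53.1 and 52.3 CPM with CK and 71.9, 73.6 and 74.7 CPM with Put. It rose with a log2 fold change of 0.44 (SE 0.05, edgeR adjusted p = 8.38e-12). The largest log2 fold change was that of another copy of subunit 6a with few counts, LOC107913356 (D11, 29762674 to 29765432, minus strand), which had 42, 79 and 62 counts with CK and 97, 103 and 83 with Put. It rose with a log2 fold change of 0.79 (SE 0.18, edgeR adjusted p = 0.000357), and no domain was listed for it. The smallest called increase was that of LOC107905088 (subunit 6b-1, D05, 20537017 to 20540705, minus strand), with 43.4, 44.6 and 43.4 CPM with CK and 47.6, 51.8 and 51.3 CPM with Put. Its log2 fold change of 0.20 (SE 0.05, edgeR adjusted p = 0.00176) was 0.11 with the length offsets, where it was not called (adjusted p = 0.0945).

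The mitochondrial ATP synthase had 22 of 33 genes higher, 0 lower and 11 not called, with a median log2 fold change of 0.22. Its beta subunit, which carries the catalytic sites, changed little at a high level. LOC107899003 (A04, 80462848 to 80466605, minus strand), the gene with the highest CPM of this group, had 247, 250.6 and 250.5 CPM with CK and 255, 259 and 259 CPM with Put. The groups did not overlap, but the log2 fold change of 0.05 (SE 0.03) did not pass the test (edgeR adjusted p = 0.142). With the length offsets it was called, with a log2 fold change of 0.07 (edgeR adjusted p = 0.0293). Its neighbour LOC121228191 (80451880 to 80455280, plus strand) had 115.8, 114.7 and 119.4 CPM with CK and 132.3, 120.6 and 120.2 CPM with Put. Its call (log2 fold change 0.09, SE 0.04, edgeR adjusted p = 0.0379) was lost without CK replicate 1, CK replicate 2 or Put replicate 1, with log2 fold changes of 0.09, 0.08 and 0.05. It was also lost with DESeq2 (adjusted p = 0.125), with library size in place of TMM in edgeR (adjusted p = 0.131) and with limma on log2 FPKM (adjusted p from 0.151 to 0.196). The copies on D04, LOC121215917 and LOC107899005, rose with log2 fold changes of 0.16 and 0.19. Together the 4 beta genes summed to 361.6, 355.2 and 359.1 FPKM with CK and 396.2, 386.1 and 383.4 FPKM with Put, which is 1.08 times as high, with all Put sums above all CK sums. The gamma subunit, the rotor inside the catalytic ring, had 4 of 7 genes higher and a summed FPKM 1.09 times as high.

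The epsilon subunit of the central stalk had 4 of 4 genes higher, with log2 fold changes from 0.37 (LOC107930848, D12) to 0.51 (LOC107911665, D11), and its summed FPKM was 1.35 times as high. The peripheral stalk subunit O had both genes higher. LOC107945533 (D12, 37405985 to 37409012, plus strand) had 107.9, 111.9 and 108.3 CPM with CK and 137.1, 133.9 and 133.9 CPM with Put. The increase was 0.30 on the log2 scale (SE 0.03, edgeR adjusted p = 1.1e-10), and that of LOC107934796 on A12 was 0.19. The 24 kDa subunit, a component described from plants, had 2 of 4 genes higher, LOC107899569 on A11 (0.47) and LOC107911656 on D11 (0.38), while LOC107946977 on A11 (0.03) and LOC107922592 on D11 (-0.02) were not called.

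The 2 largest log2 fold changes of all 199 genes belonged to ATP synthase genes of D11 that lack the domain of their subunit and had few counts. LOC107911481 (subunit delta', 39618859 to 39629228, minus strand) had 16, 9 and 23 counts with CK and 58, 47 and 48 with Put. Its log2 fold change was 1.82 (SE 0.28, edgeR adjusted p = 5.45e-07), at mean levels of 0.576 FPKM with CK and 2.04 FPKM with Put, and no domain was listed for it, whereas 6 of the 8 delta' genes list the ATP synthase delta/epsilon domain. LOC107925921 (subunit d-like, 69679107 to 69683061, plus strand) had 1.87, 1.94 and 2.44 CPM with CK and 8.24, 5.24 and 5.81 CPM with Put. It rose by 1.63 on the log2 scale (SE 0.19, edgeR adjusted p = 2.94e-10), and it lists a Myb-like DNA-binding domain, whereas the other 3 genes of subunit d list the ATP synthase D chain. Among the latter, LOC107930653 (A01) and LOC107922615 (D01) rose with log2 fold changes of 0.27 and 0.25, and LOC107931382 (D09) was not called (0.21). The remaining ATP synthase genes of D11 were LOC107911665 (epsilon, 5054389 to 5056589, minus strand), LOC107911656 (24 kDa, 4967071 to 4973361, plus strand) and LOC107922592 (24 kDa, 41009692 to 41014272, plus strand). Their CPM was 23.99, 21.7 and 23.1 with CK and 33.5, 33.8 and 30.3 with Put for LOC107911665, whose groups did not overlap (log2 fold change 0.51, SE 0.07, edgeR adjusted p = 1.75e-08). LOC107911656 had 47.8, 45.4 and 46.4 CPM with CK and 61.4, 59.5 and 61.3 CPM with Put, also without overlap (log2 fold change 0.38, SE 0.05, edgeR adjusted p = 2.59e-09). LOC107922592 had 27.4, 27.7 and 28.7 CPM with CK and 26.97, 25.9 and 29.9 CPM with Put, which overlapped. A heat map of the study labels a gene of D11 as ATP synthase subunit, and the files do not pair its identifier with one of these loci.

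The chloroplast ATP synthase, which makes ATP in the light in green tissue, had 2 of 6 genes higher and 2 lower. Its gamma chain fell in LOC107901956 (D06, 56595865 to 56598297, plus strand), with 16.7, 16.7 and 16.99 CPM with CK and 12.8, 9.997 and 11.03 CPM with Put. The groups did not overlap (log2 fold change -0.57, SE 0.10, edgeR adjusted p = 2.16e-06). The copy on A06, LOC107961992, fell too, with 12.3, 11.8 and 10.2 CPM with CK and 8.57, 8.75 and 7.51 CPM with Put (log2 fold change -0.46, SE 0.11, edgeR adjusted p = 0.000817). The delta subunit rose, in LOC107932688 (A01, 3555081 to 3556143, minus strand) from 12.5, 15.95 and 15.9 CPM with CK to 22.9, 21.4 and 20.7 CPM with Put. The increase was 0.55 on the log2 scale (SE 0.09, edgeR adjusted p = 6.89e-07), and that of LOC107936179 on D01 was 0.49. The summed CPM of the chlorophyll a-b binding genes given above was lower with Put, with 12 of 32 tested genes called lower, and the part of green tissue in these values was not tested.

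The assembly factors had 7 of 25 genes higher, 0 lower and 18 not called, with a median log2 fold change of 0.14. Their share of called genes, 28.0%, was below the 36.6% of all tested genes. By direction, 28.0% were higher and 0% lower, beside 18.4% and 18.2% of all tested genes. DESeq2 called 4 of the 25 higher, beside 14.4% of all tested genes. With the length offsets 4 were called higher, beside 17.1% of all tested genes, and the median was 0.03. The genes that rose were both of F1 complex assembly factor 2 described above, LOC107939176 (F1 complex assembly factor 1, D01), both of complex I assembly factor 3, LOC121229357 (COX19, A05) and LOC107934087 (COX23, A12). LOC107939176 (6403208 to 6406367, plus strand) had 3.69, 4.74 and 4.11 CPM with CK and 7.09, 6.66 and 6.28 CPM with Put, without overlap (log2 fold change 0.68, SE 0.15, edgeR adjusted p = 0.000234). It lists an ATP11 domain, and ATP11 assists F1 assembly in yeast. Thus all 3 genes of F1 assembly factors were called. LOC107896300 (complex I assembly factor 3, A05, 81744745 to 81747051, plus strand) had 14.95, 14.7 and 14.5 CPM with CK and 18.5, 17.1 and 16.5 CPM with Put. Its call (log2 fold change 0.24, SE 0.09, edgeR adjusted p = 0.0245) was lost without CK replicate 2, CK replicate 3 or Put replicate 1, with adjusted p of 0.0556, 0.0638 and 0.135, with DESeq2 (adjusted p = 0.0843) and with the length offsets (log2 fold change 0.11, edgeR adjusted p = 0.37). The gene with the highest CPM, LOC107937997 (succinate dehydrogenase assembly factor 2, A07, 5958193 to 5960498, plus strand), had 26.8, 24.7 and 26.1 CPM with CK and 28.6, 27.9 and 30.3 CPM with Put. Its groups did not overlap, and it was not called (log2 fold change 0.16, SE 0.07, edgeR adjusted p = 0.0562). None of the 4 genes of COX11, which brings copper to cytochrome c oxidase, and neither gene of COX15, which acts in heme A synthesis, was called.

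The flavoprotein, iron-sulfur, Rieske, beta and gamma subunits and the other subunits of their complexes were set side by side after their values had been seen, so the split is a description. In complex I, 9 of 20 genes of the flavoproteins and of iron-sulfur proteins 1, 7 and 8-B rose and 2 fell, with a median log2 fold change of 0.15, whereas 45 of 56 other genes rose and 1 fell, with a median of 0.40. Iron-sulfur proteins 4, 5-B and 6 were counted with these other genes. In complex II, 1 of 7 flavoprotein and iron-sulfur genes rose and 2 fell (median -0.03), against 7 of 8 other genes (median 0.21). In complex III, 1 of 4 genes described as Rieske subunit rose (median 0.13; the gene with the kinase domain is among them), against 16 of 18 other genes (median 0.43). In the mitochondrial ATP synthase, 7 of 11 beta and gamma genes rose (median 0.16), against 15 of 22 other genes (median 0.29). The genes of the first class were also longer in each of these complexes. Their median lengths were 1186 bp against 809 bp in complex I and 1253 bp against 1012.5 bp in complex II. They were 1198 bp against 765.5 bp in complex III and 1702 bp against 969 bp in the ATP synthase.

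Gene length moved with the log2 fold change in these libraries. Over all tested genes Spearman's rho of log2 fold change with gene length was -0.24, and over the 199 genes it was -0.49 (both across genes of the same 6 libraries, which are not independent). The median length of the 199 genes was 1008 bp, that of all tested genes was 1781 bp, and 174 of the 199 genes were shorter than the latter. With offsets fitted to gene length in each library, rho over the 199 genes was -0.25 and their median log2 fold change was 0.19, against -0.0044 over all tested genes. In this fit 47 genes of complex I, 4 of complex II, 12 of complex III, 16 of complex IV and 21 of the mitochondrial ATP synthase were higher, and 3, 2, 2, 0 and 1 were lower, while 4 assembly factor genes were higher and 0 lower. The medians of the split above became 0.11 and 0.30 in complex I, 0.0002 and 0.09 in complex II, 0.06 and 0.24 in complex III, and 0.16 and 0.16 in the ATP synthase, so that in the last the difference was gone. How far RNA integrity or fragment selection takes part in the relation with length was not tested.

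**Figure D4:**
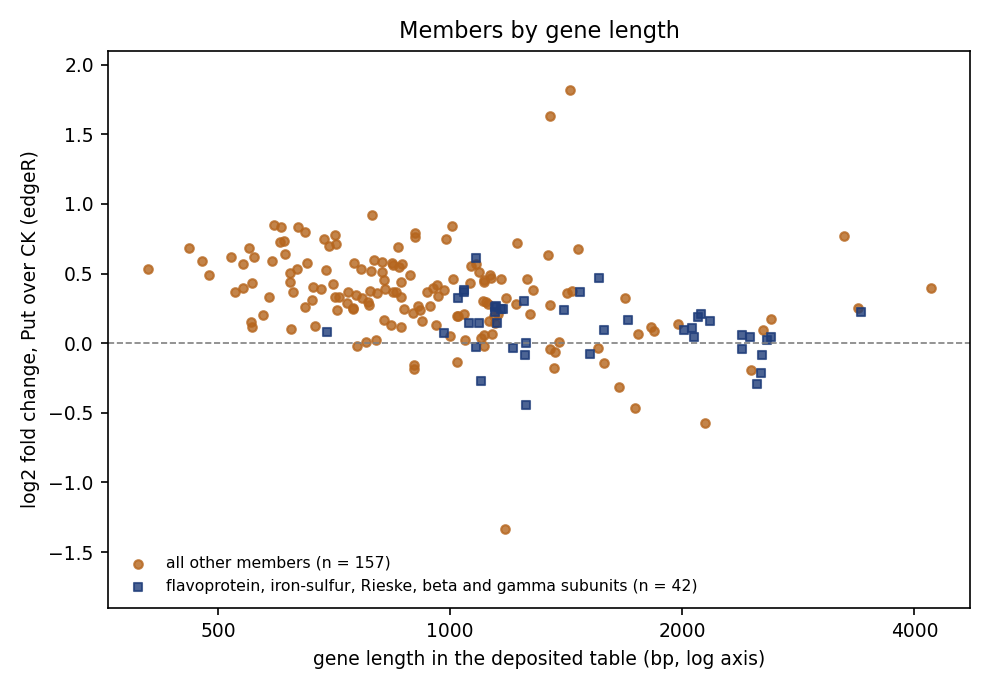
Each point is 1 of the 199 genes, with gene length in bp on a log axis (horizontal) and the log2 fold change of Put over CK from edgeR (vertical). Blue squares are 42 genes of flavoprotein, iron-sulfur, Rieske, beta and gamma subunits of complexes I, II, III and V. Of the iron-sulfur proteins of complex I, only 1, 7 and 8-B are among them. Brown circles are the other 157 genes, with iron-sulfur proteins 4, 5-B and 6 of complex I. The shorter genes on the left lie higher, as the Spearman's rho of -0.49 describes.

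Copies on A and D chromosomes could be paired for 104 of the 199 genes. Among these 52 pairs, in which a description had a single gene on an A chromosome and a single gene on the D chromosome of the same number, both copies rose in 31, both fell in 1, 1 copy was called in 8 and neither in 12, with opposite calls in 0. With the length offsets, the pairs called alike were 21. Of the 199 genes, 64.3% were higher and 3.52% lower, beside 18.4% and 18.2% of all tested genes. With such shares many pairs called higher and few opposite calls can arise without a link between copies. Pairs among all tested genes were not counted, so these counts do not show how far copies respond together. Outside these pairs, iron-sulfur subunit 2 of complex II and alpha subunit 6 of complex I had copies called in both directions, as described above. Among the 52 pairs, the one that fell was that of the chloroplast gamma chain on A06 and D06. Copies on A and D chromosomes of unlike number were not paired by this rule. Examples are the iron-sulfur subunit 2 genes on A05 and D04, which both fell. The median absolute difference between the log2 fold changes of the copies was 0.09 and the largest was 0.65, for LOC107939895 (A12) and LOC107949686 (D12) of flavoprotein 2, neither of which was called. A wide difference between 2 called copies was that of beta subunit 10-B, where LOC107897922 on A09 (44755498 to 44759964, minus strand) went from 44.6, 40.3 and 44.5 CPM with CK to 68.6, 75.3 and 73.1 CPM with Put. Its log2 fold change was 0.75 (SE 0.05), and that of LOC107892027 on D09 was 0.26 (SE 0.06), a difference that was not tested. Over all genes on A chromosomes 61 rose and 4 fell, and over those on D chromosomes 67 rose and 3 fell, with summed FPKM 1.26 and 1.27 times as high. The share of reads that copies of like sequence may have exchanged was not tested.

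**Figure D5:**
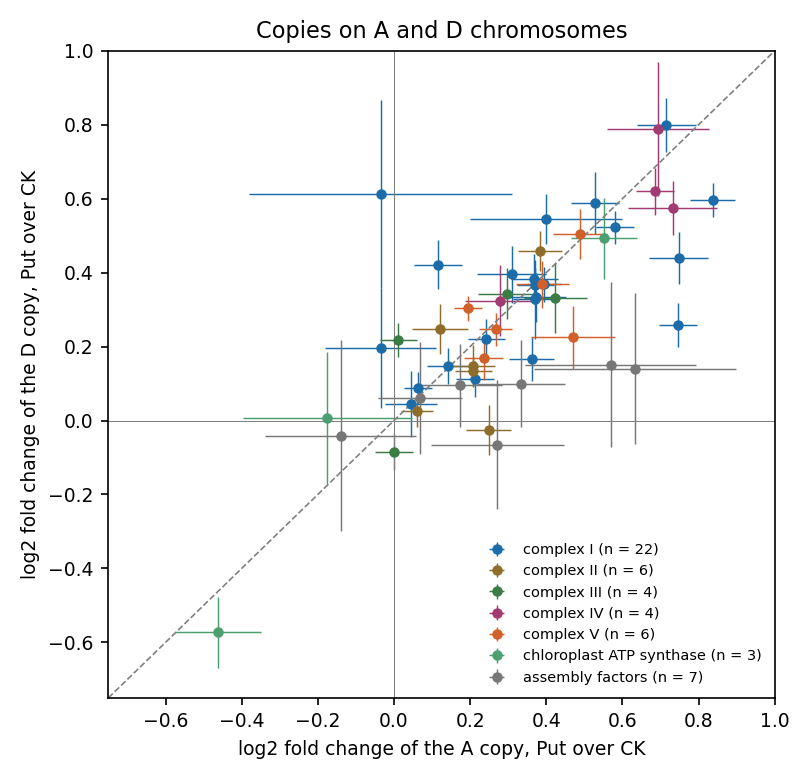
Each point is 1 of 52 pairs of copies, with the log2 fold change of the A copy (horizontal) and of the D copy (vertical) from edgeR, and bars of 1 SE. Most points lie along the dashed line of equal change in the upper right, the chloroplast gamma chain pair lies in the lower left, and the median distance between copies is 0.09.

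Respiratory proteins that the annotation names in other words were looked at as lists by description. The gamma carbonic anhydrases, which form a plant-specific part of complex I, had 8 of 10 tested genes higher and 0 lower, with a median log2 fold change of 0.22, and both genes with other complex I names rose (0.20 and 0.21). With the length offsets, the log2 fold changes of the latter were 0.01 (LOC107960158, A06) and 0.03 (LOC107963722, D06). Ubiquinol oxidase, the alternative oxidase that passes electrons from quinol to oxygen without pumping protons, had 4 of 7 genes higher and 0 lower, with a median of 0.28. Its largest increase was in LOC107949133 (A04), with 4.31, 4.69 and 3.59 CPM with CK and 7.86, 9.46 and 7.62 CPM with Put, without overlap (log2 fold change 0.98, SE 0.14, edgeR adjusted p = 1.39e-07). LOC121215954 (D04) followed with a log2 fold change of 0.76, and the 2 genes of the plastid form of this enzyme were not called (0.07 and -0.24). The alternative NAD(P)H dehydrogenases, which feed electrons to quinone without pumping protons, had 1 of 10 genes higher and 1 lower, with a median of -0.02.

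Cytochrome c, the carrier between complexes III and IV, had 1 of 6 genes higher, LOC107938515 on A03 (log2 fold change 0.53), and cytochrome c1 of complex III had 1 of 6 higher and 1 lower. The mitochondrial-processing peptidase, whose subunits form the core of complex III in plants, had 2 of 12 genes higher and 0 lower, with a median log2 fold change of 0.04. The ADP,ATP carriers had 5 of 21 genes higher and 3 lower, and the mitochondrial phosphate carriers 1 of 7 higher. The 5 higher ADP,ATP carriers were described as mitochondrial and the 3 lower ones as chloroplastic. The 13 that were not called were of both kinds or of other description. The share of called genes over all of these lists and those of the closing section was 40.8% (54 higher and 21 lower of 184), beside 36.6% of all tested genes. By direction, 29.4% were higher and 11.4% lower, beside 18.4% and 18.2% of all tested genes. These shares are not those of respiratory proteins alone, because the words of the lists took in other genes. Among these are plastid ADP,ATP carriers, plastid ubiquinol oxidase, ATP-citrate synthase, peroxisomal citrate synthase, aconitate hydratase described as cytoplasmic and pyruvate dehydrogenase kinase. The libraries were made from poly(A) RNA, and the mitochondrial genome's 68 listed genes summed to 1621 to 2243 counts with CK and 1213 to 1711 with Put, so its subunits were not compared.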

How the data were processed

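Ovule RNA was sequenced on an Illumina platform after poly(A) selection. Per the labels and the paper's methods, reads were aligned to Gossypium_hirsutum_v2.1, and the submitters' processing notes name CASAVA and HISAT2 2.0.5. The authors deposited raw counts per gene, which were tested here, and FPKM, in which the normalization between samples equals DESeq2's size factors and which served for levels per length. The counting program is not given in the sources used here.

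Counts of all genes were fitted in R 4.3.3 with edgeR 4.0.16 (filterByExpr, TMM, quasi-likelihood test, Benjamini-Hochberg adjustment over all tested genes, called at 0.05), with CPM from TMM-scaled library sizes. All 199 genes passed the filter. The common coefficient of variation between replicates was 4.41%. The floor of 3 counts covers counting error only. The fits were tested on simulated counts. Alternatives used DESeq2 1.42.0, limma 3.58.1 on log2 FPKM with a pseudocount of 1 or of 0.1, where fold changes of low genes are understated, other scalings and filters, offsets fitted to gene length (loess, span 0.3), the replicate number as a block, stricter thresholds, and leaving out each replicate.

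The genes, groups, lists and tests were chosen with earlier results of these data known. Genes were named by a rule: in each group the gene with the highest mean CPM and, among called genes with at least 1 CPM and no overlap, those with the largest and smallest log2 fold change, then called genes whose log2 fold change reached 1 or -1 at 1 CPM or more, the ATP synthase genes on D11, and pairs with opposite calls. Any other gene was named after its values had been seen. Names and domains are those of the files, and all 199 genes had an entry in RefSeq. No sequence was printed.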

Additional observations from a re-analysis of the deposited data

How the results depend on the processing

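The count of 128 genes higher with Put lay between 106 and 129 in the fits with other scalings, filters or tools, and the count of 7 lower genes between 6 and 10. The median log2 fold change of 0.30 was 0.28 with library size alone, 0.29 with limma on log2(FPKM + 1) with or without a filter on low FPKM, 0.19 with offsets that follow gene length, and 0.33 without the chloroplast and assembly factor genes. The 32 pairs of copies called alike became 21 with the length offsets. When called genes also had to reach a log2 fold change of 0.5 or -0.5, 47 genes were higher, 2 were lower and 7 pairs were called alike. At 1 or -1, these counts were 2, 1 and 0, and 1 of the 5 mitochondrial complexes still had more higher than lower genes. DESeq2 called 115 higher and 6 lower, and a threshold of 0.01 left 114 and 6. Over the 6 fits that each left out 1 replicate, 118 to 126 genes were higher, 6 to 7 were lower and the median lay between 0.295 and 0.308, and 115 of the 135 called genes kept their call in each. LOC107922592, not called, changed sign in 3 of these fits, within a range of -0.077 to 0.0252. Same-numbered CK and Put samples did not deviate together (correlations of -0.00497, -0.0085 and -0.0132 over all tested genes). No pairing by number was thus seen, but the check gives each gene the same weight and could miss a weak one. With the replicate number as a block 128 genes were higher and 7 lower, with a median of 0.30. The causes of these shifts were not tested. With 3 samples a condition, genes of a few counts, such as LOC121215538, limit what can be said of their size of change.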

Other observations

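The mitochondrial uncoupling proteins, carriers of the inner membrane related to those that let protons or metabolites pass without ATP synthesis, had 6 of 11 tested genes higher and 0 lower, with a median log2 fold change of 0.23. Of all tested genes, 18.4% were higher and 18.2% lower. The genes named here were chosen after their values had been seen. LOC107940276 (uncoupling protein 5, A03) had 3.12, 2.34 and 2.39 CPM with CK and 15.3, 13.5 and 14.6 CPM with Put, with a log2 fold change of 2.47 (SE 0.14, edgeR adjusted p = 1.04e-21), which is above that of each of the 199 respiratory genes. LOC107907728 (uncoupling protein 5-like, D02) rose from 0.363, 0.255 and 0.312 CPM with CK to 1.15, 1.25 and 1.53 CPM with Put (log2 fold change 2.05, SE 0.42, edgeR adjusted p = 6.57e-05). LOC107898655 (uncoupling protein 5-like, A11) had 69.7, 74.4 and 69.3 CPM with CK and 137.5, 134.6 and 133.9 CPM with Put, and LOC107913399 on D11 had 87.95, 90.3 and 87.2 CPM with CK and 138.8, 139.8 and 134.2 CPM with Put. Neither overlapped between the groups, and their log2 fold changes were 0.93 and 0.64. LOC107950411 (uncoupling protein 5, D03) was not called (log2 fold change -0.04), nor were the genes of uncoupling protein 1.

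Lists drawn by the names of enzymes that supply the chain had calls in both directions. In the tricarboxylic acid cycle list, 17 of 71 genes (23.9%) rose and 14 (19.7%) fell, with a median log2 fold change of 0.08. Among all tested genes these shares were 18.4% and 18.2%, close to those of this list. Its words also took in ATP-citrate synthase, peroxisomal citrate synthase, aconitate hydratase described as cytoplasmic and isocitrate dehydrogenase [NADP]. The only lower genes described as mitochondrial were LOC107926029 (D04, -0.13) and LOC107945781 (D12, -0.47). Mitochondrial genes, ATP-citrate synthase and isocitrate dehydrogenase [NADP] were among those that rose. In the mitochondrial pyruvate dehydrogenase list, 6 of 21 genes rose and 2 fell, with a median of 0.01. Its share of called genes was 38.1%, beside 36.6% of all tested genes. This list includes genes of pyruvate dehydrogenase kinase, none of which was called.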
